A study of Mus musculus with 2 samples.

Results

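Collagens are the proteins that give joints, bone and vessel walls their tensile strength, and the mouse genes examined here were all symbols of the deposited gene list written as Col, a number, the letter a and a second number. This rule reads symbols alone and chose 44 of 32285 genes. The data are 2 droplet single-cell RNA-seq libraries of the temporomandibular joint (TMJ), the joint of the jaw, from C57BL/6 mice recorded as 8 to 10 weeks old and described by the study as female. The first library came from wild-type (WT) mice and the second from Prox1 mutant mice, which the study describes as Prox1+/- heterozygotes, and both groups had received complete Freund's adjuvant (CFA), an inflammatory agent, inside the joint. How many mice went into a library is not stated in the sources used here, and no joint without CFA was analysed here. Prox1, the transcription factor that gives lymphatic endothelium its identity, had 563 UMIs in the WT library, 11.6 UMIs per 1000000 UMIs of all genes (CPM), and 315 UMIs, 5.80 CPM, in the mutant library. These Prox1 values mix the abundance of cell types with the level in each, so no level per cell is read from them.

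A collagen molecule is a trimer of chains that wind around each other as a triple helix, and 1 residue in 3 along the helix is glycine, the residue small enough for its centre. Fibrillar collagens (types I, II, III, V, XI, XXIV and XXVII) form the banded fibrils of bone, tendon and cartilage. Basement membrane collagens were taken as type IV, the multiplexins XV and XVIII, and the anchoring fibril collagen VII. Of these, type IV forms sheets beneath endothelium and around muscle, nerve and fat cells. Network collagens (types VIII and X) form hexagonal lattices. The remaining chains were grouped as other, and these include the beaded filament collagen VI, the fibril-associated collagens with interrupted helices (FACIT), the transmembrane collagens, and types XXVI and XXVIII, which were not placed further. By this grouping 11 genes were fibrillar, 9 basement membrane, 3 network and 21 other.

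The length of the longest unbroken glycine repeat sets the fibrillar class apart in the coding sequence itself, and for that reason the end of that repeat is shown for 5 members that lead the results. Each stretch has 108 bases, read 5′ to 3′ on the coding strand from GRCm38 with GENCODE M21 transcripts, and capitals mark codons that begin with GG, which encode glycine. In every stretch the first 24 codons keep glycine at 1 codon in 3 without a break, and the last 12 follow the point where this spacing breaks or shifts. In Col4a1, where the stretch covers codons 139 to 174, and in Col6a1 the break is an interruption, and further glycine repeats follow it. The Col1a1 stretch spans chr11:94950178-94950371 on the plus strand (coding exons 47 to 48), the Col3a1 stretch chr1:45345051-45345946 on the plus strand (47 to 48), the Col2a1 stretch chr15:97977920-97978355 on the minus strand (50 to 51), the Col4a1 stretch chr8:11244516-11245237 on the minus strand (7 to 9) and the Col6a1 stretch chr10:76714438-76715039 on the minus strand (22 to 24), and these spans include the introns that lie between the exons.
Col1a1: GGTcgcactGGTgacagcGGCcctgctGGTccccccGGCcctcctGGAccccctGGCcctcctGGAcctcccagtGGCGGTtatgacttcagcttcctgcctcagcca
Col3a1: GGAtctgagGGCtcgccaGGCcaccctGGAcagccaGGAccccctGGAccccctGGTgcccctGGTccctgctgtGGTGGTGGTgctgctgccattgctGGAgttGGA
Col2a1: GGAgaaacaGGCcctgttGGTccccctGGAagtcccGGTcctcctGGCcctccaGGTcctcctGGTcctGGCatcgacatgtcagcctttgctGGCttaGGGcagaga
Col4a1: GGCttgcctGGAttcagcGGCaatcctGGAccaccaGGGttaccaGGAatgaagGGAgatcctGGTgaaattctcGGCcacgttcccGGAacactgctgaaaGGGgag
Col6a1: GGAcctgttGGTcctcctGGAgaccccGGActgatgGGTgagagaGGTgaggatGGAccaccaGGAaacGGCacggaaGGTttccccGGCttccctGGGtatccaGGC

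The longest unbroken glycine repeat ran to between 216 and 344 triplets in the 11 fibrillar genes, with a median of 338. In the 6 type IV genes it ran to between 39 and 66 triplets, and the helix was split into 22 to 27 repeats of at least 5 triplets. The 2 multiplexins stopped at 30 triplets, the 3 network genes at 60 or 61, the 9 FACIT genes between 32 and 113, and the 6 type VI genes between 37 and 87. No other gene of the family reached the lowest value of the fibrillar class, although the share of codons in repeats overlapped between classes.

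**Figure D1:**
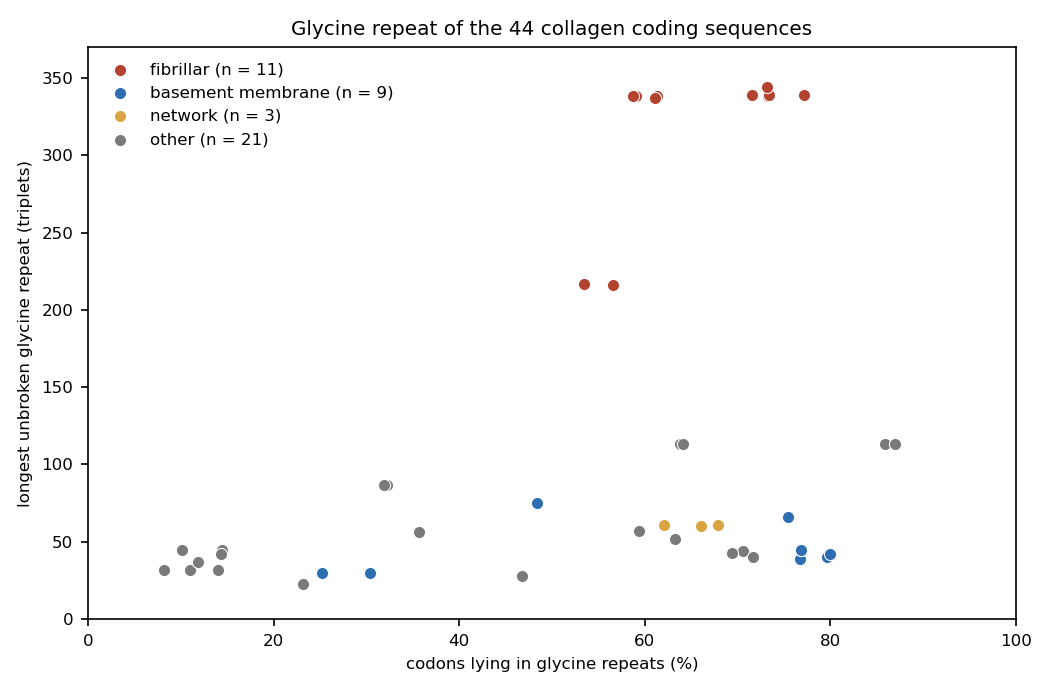
Longest unbroken glycine repeat, in triplets, against the share of codons lying in glycine repeats, in percent, for the 44 collagen coding sequences, 1 point per gene and coloured by class. The 11 fibrillar genes sit at 216 to 344 triplets, above all other points, and the longest repeat outside that class has 113.

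Several members are neighbours in the genome. Col4a1 and Col4a2, the chains of the common type IV trimer, start head to head on chromosome 8, and their annotated RefSeq starts in GRCm38.p6 overlap by 22 bases at chr8:11312805-11312826. This overlap, read on the plus strand with its GC box (GGGCGG) in capitals, is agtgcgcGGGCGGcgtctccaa. Col4a4 and Col4a3 start head to head 71 bases apart on chromosome 1 and Col4a6 and Col4a5 1308 bases apart on chromosome X, so each of the 3 type IV pairs shares its start region. Col3a1 and Col5a2 lie tail to tail 24614 bases apart on chromosome 1, Col6a2 and Col6a1 lie 85161 bases apart on chromosome 10, and Col6a6, Col6a5 and Col6a4 follow one another on chromosome 9. In the 250 bases before each start, which leave out the Col4a1 and Col4a2 overlap, GGGCGG on either strand stood in 57.9% of 38 windows of 35 collagen genes and in 32.7% of all 32851 windows. CCAAT stood in 34.2% of the collagen windows against 33.8% of all, and TATAAA in 13.2% against 12.4%, so only the GC box was more frequent in the collagen windows by more than a few percentage points, which is a description of letters and not of binding.

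The WT library held 5709 barcodes and the mutant library 7846, of which 4352 (48366846 UMIs, median 6997 per cell) and 5757 (54330221 UMIs, median 4848) passed the study's limits of at least 500 genes and under 10% mitochondrial UMIs. Cells were clustered with all collagens left out of the clustering features and named only from markers that are not collagens, so that collagen levels played no part in defining a cell type, and every name given below means cells like that type. A cluster with markers of several lineages, few markers or cells from nearly 1 library stayed unnamed, and such cells made up 14.0% of the WT library and 45.8% of the mutant library. They held 2.91% of the collagen UMIs in WT and 10.3% in the mutant, and their part in the values per type was not tested. With 1 library per condition there is no replicate error, so the intervals given are exact 95% intervals for counting error only and no test between conditions was made. A level rests on its UMIs, with 10 UMIs bounding it between 52.0% below and 83.9% above, and 1000 UMIs between 6.10% below and 6.40% above. Levels are CPM within a cell type and are not divided by length, since the reads come from 3′ ends.

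All 44 collagens had UMIs in both libraries, and collagens summed to 488112 UMIs, 10092 CPM, in WT and 280666 UMIs, 5166 CPM, in the mutant. Col1a1 and Col1a2, the chains of type I collagen of bone and tendon, and Col3a1, the chain of type III collagen of loose connective tissue, held 65.2% of collagen UMIs in WT and 66.1% in the mutant. Of the 44, 38 had at least 200 UMIs over both libraries and are described by cell type, namely all 11 fibrillar, 6 of 9 basement membrane, all 3 network and 18 of 21 other genes. The 6 below this minimum were Col4a3 (55 UMIs in WT and 34 in the mutant), Col4a4 (94 and 50) and Col7a1 (47 and 44) among basement membrane genes, and Col6a4 (8 and 29), Col6a5 (103 and 87) and the epithelial anchoring collagen Col17a1 (21 and 30) among the others. The libraries differ in cell composition, so whole-library values mix the abundance of cell types with levels in them, and the comparison below is made within cell types.

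Osteoblast or osteocyte-like and chondrocyte-like cells devoted the highest shares of their RNA to collagens in WT, the former at 107985 CPM over 32 cells in WT and 67987 CPM over 22 cells in the mutant. Chondrocyte-like cells held 100419.7 CPM over 28 cells in WT against 36109 CPM over 51 cells in the mutant. Without the cell with the most collagen UMIs the order of the 2 types turned in WT, at 91155 CPM for osteoblast or osteocyte-like and 98295 CPM for chondrocyte-like cells, but not in the mutant, at 68119.6 and 30871 CPM. Tendon-like cells, synovial lining-like cells and mesenchymal-like cells followed at 46788, 38202 and 21263 CPM in WT against 38854, 31434 and 26004 CPM in the mutant. Pericyte-like cells reached 9229.7 and 8091 CPM, whereas endothelial-like, myelinating Schwann-like, smooth muscle-like and muscle-like cells stayed between 2149.6 and 3415 CPM. Macrophage-like, monocyte-like, B lineage-like, T or NK-like, neutrophil-like and erythroid-like cells lay below 500 CPM in both libraries. The skeletal types were rare, so that osteoblast or osteocyte-like and chondrocyte-like cells were 32 and 28 of the 4352 WT cells yet held 13.4% and 18.7% of its collagen UMIs.

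The chondrocyte-like cluster went partly against its label in the mutant library. Its median depth was 33120 UMIs per cell in WT and 3359 in the mutant, and Col2a1, which encodes the defining fibril collagen of cartilage and was not used for naming, had a UMI in 28 of 28 WT cells and in 11 of 51 mutant cells. Of 10 chondrocyte markers, 9 were detected in at least 10% of the WT cells and 8 in the mutant cells, where 1 was at 0. Other clusterings gave the label to 43 mutant cells with a stricter cell filter and 53 at resolution 0.5. It went to 6 mutant cells with a looser filter, 13 with collagens kept for clustering, 4 without integration and 5 with doublets removed. Mutant values of this cluster are therefore given as values of cells bearing this label, and no ratio is drawn from them. The leading genes of the synovial lining-like cluster included Prg4, which encodes lubricin, together with Mmp3, Cxcl5 and Timp1, genes of inflammation and matrix turnover. In this cluster 4 of 6 lining markers were raised, and so were 12 of 12 mesenchymal markers. Its lining markers summed to 3955 CPM in WT against 8301 CPM in the mutant. No cluster was named lymphatic endothelial.

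**Figure D2:**
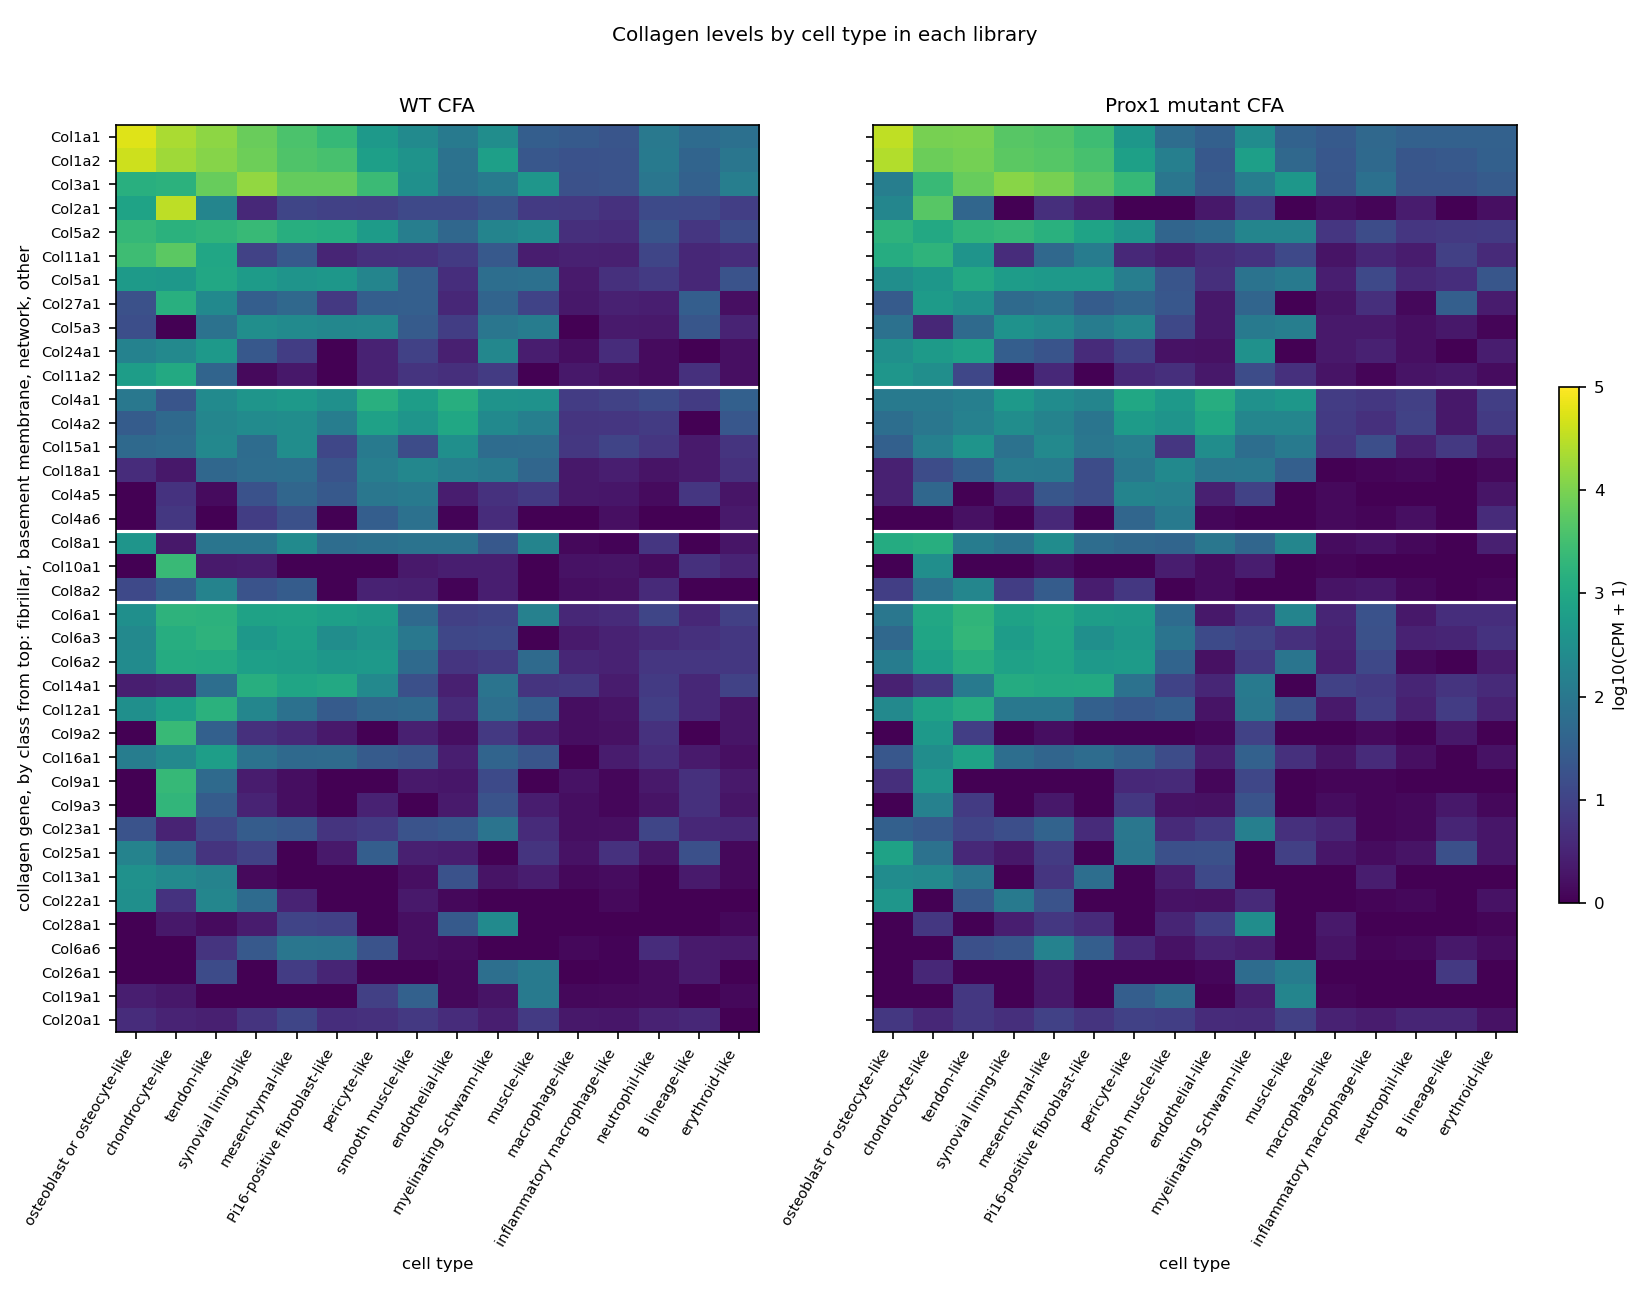
Levels of the 38 collagens with at least 200 UMIs (rows, grouped by class) in 16 cell types (columns) as log10(CPM + 1), with WT on the left and the Prox1 mutant on the right. The fibrillar rows are brightest in the skeletal and fibroblast columns on the left side of each panel, and Col4a1 and Col4a2 are brightest in the pericyte-like and endothelial-like columns.

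Type I collagen was highest in osteoblast or osteocyte-like cells in both libraries. Col1a1 stood there at 56033 CPM (95% interval 55439 to 56631) in WT against 33063 CPM (32580.3 to 33552) in the mutant, with 1 cell giving 24.7% and 26.4% of the UMIs. It followed at 22957 CPM in chondrocyte-like and 14402 CPM in tendon-like cells of WT and at 9659 CPM in tendon-like and 9293 CPM in chondrocyte-like cells of the mutant. Col1a2 kept this order, at 40793, 19395 and 12302 CPM in WT against 27048, 9105 and 7464 CPM in the mutant.

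Type III collagen had another order, with Col3a1 highest in synovial lining-like cells at 15214 CPM (95% interval 15071 to 15359) in WT against 13081 CPM (12917 to 13246) in the mutant. In WT it followed at 7029 CPM in tendon-like, 6553 CPM in Pi16-positive fibroblast-like and 6548 CPM in mesenchymal-like cells, the last 2 of which had overlapping intervals. In the mutant, mesenchymal-like cells came next at 9301 CPM, followed by tendon-like cells at 6944 CPM. Col3a1 was lower than Col1a1 in osteoblast or osteocyte-like cells by a wide margin, at 1427 CPM in WT against 135 CPM in the mutant.

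Type V collagen, which sets the width of type I fibrils, was spread over the connective tissue types. Col5a2 led in synovial lining-like cells (2328 and 2111 CPM in WT and mutant), with tendon-like cells at 1886 and 1834 CPM and osteoblast or osteocyte-like cells at 2094 and 1693 CPM. Col5a1 led in tendon-like cells at 988 and 1047 CPM, ahead of synovial lining-like cells at 563 and 591 CPM. Col5a3, the least abundant type V chain, led in synovial lining-like cells at 292 and 357 CPM, ahead of mesenchymal-like cells at 245 and 253 CPM and pericyte-like cells at 219 and 195 CPM. The 3 chains each reached 10% of their own highest level in 7 cell types of both libraries, a broader spread than that of Col1a1, which did so in 4.

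The cartilage fibril collagens were the most restricted of the class. Col2a1 stood at 31726 CPM (95% interval 31360.3 to 32094) in WT chondrocyte-like cells and at 790.1 CPM in the next type, osteoblast or osteocyte-like cells, where 62.1% of its UMIs were in 1 cell. In the mutant it stood at 5139 CPM (4912 to 5373) in chondrocyte-like cells, with 58.0% of the UMIs in 1 cell. Col11a1, the partner that nucleates type II fibrils, led in chondrocyte-like cells (5498 and 1787 CPM) but was also high in osteoblast or osteocyte-like (2851 and 1257 CPM) and tendon-like cells (917 and 384 CPM). Col11a2 stood at 1082 and 599 CPM in WT chondrocyte-like and osteoblast or osteocyte-like cells and at 293 and 418 CPM in those of the mutant, an order that turned between the libraries. Col27a1 led in chondrocyte-like cells at 1422 and 563 CPM, with tendon-like cells next at 235 and 341 CPM. Col24a1 differed from these, since it led in tendon-like cells at 500.2 and 738 CPM followed by chondrocyte-like cells at 223 and 525 CPM and by myelinating Schwann-like cells at 202 and 331 CPM.

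Among basement membrane collagens, Col4a1 and Col4a2 marked the vessel wall. Col4a1 stood at 1427 CPM (95% interval 1324 to 1535) in pericyte-like and 1383 CPM (95% interval 1356 to 1411) in endothelial-like cells of WT, intervals that overlap, and at 931 CPM (834 to 1036) and 1304 CPM (1271 to 1337) in the mutant, where they do not. Col4a2 led in endothelial-like cells at 951 and 939.6 CPM, ahead of pericyte-like cells at 738 and 557 CPM and smooth muscle-like cells at 404 and 389 CPM. Col4a1 reached 10% of its highest level in 9 types and Col4a2 in 8, among the broadest of the family. The chains Col4a5 and Col4a6, which form the type IV network around smooth muscle, stood at 111 and 71.3 CPM in WT against 156 and 108 CPM in mutant smooth muscle-like cells. Pericyte-like cells held Col4a5 at 93.5 CPM in WT against 181 CPM in the mutant, from 47 and 65 UMIs.

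The multiplexins, whose C-terminal fragments include endostatin, lay in several types. Col15a1 stood at 309 CPM in endothelial-like, 278 in mesenchymal-like and 214 in tendon-like cells of WT, and at 285, 223 and 378 CPM in those of the mutant, where tendon-like cells led. Col18a1 led in smooth muscle-like cells at 203 and 238 CPM, and was next in endothelial-like cells in WT (140.1 CPM) and in synovial lining-like cells in the mutant (119 CPM). The endothelial-like cells were not uniform for these genes. In a cluster led by the venular genes Selp and Plvap, Col4a1 stood at 1824 CPM in WT against 1824 in the mutant, Col15a1 at 699.7 and 643, and Col18a1 at 268 and 167 CPM. In a cluster led by the capillary genes Car4 and Gpihbp1, Col4a1 stood at 1270.4 and 1199 CPM and Col15a1 at 91.4 and 85.5 CPM. In a cluster led by the arterial genes Gja5 and Sema3g, Col4a1 was lowest at 847 and 679 CPM, whereas Col8a1 was highest of the 3 clusters at 278 and 372 CPM. Col4a1 and Col15a1 were thus higher in the venular than in the capillary cluster in both libraries.

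The network collagens each had a different leading type. Col10a1, the collagen of hypertrophic cartilage, stood at 2457 CPM (95% interval 2356 to 2561) in WT chondrocyte-like cells and 299 CPM (246 to 359) in the mutant, and at no more than 6.61 CPM in any other type. Col8a2 led in tendon-like cells at 168 and 199.6 CPM, with chondrocyte-like cells next at 32.0 and 77.3 CPM. Col8a1, a collagen of vessel walls and injured tissue, stood in osteoblast or osteocyte-like cells at 408 CPM (95% interval 359 to 462) in WT against 1197 CPM (1107 to 1293) in the mutant. In chondrocyte-like cells Col8a1 stood at 1.10 CPM in WT against 1368 in the mutant, the highest mutant level, with 42.9% of the UMIs in 1 cell.

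Of the beaded filament collagen VI, which surrounds cells as a fine mesh, the 3 main chains were highest in the same types. Tendon-like cells held Col6a1, Col6a2 and Col6a3 at 1642, 1119 and 1703 CPM in WT against 1905, 1345 and 2055 CPM in the mutant. Chondrocyte-like cells held them at 1713, 1191 and 1327 CPM in WT against 1003, 664 and 851 CPM in the mutant, and mesenchymal-like cells at 788, 596 and 691 CPM in WT against 993, 873 and 894 CPM in the mutant. Col6a6 was apart from these, with its highest level in mesenchymal-like cells at 90.2 and 166 CPM and, in WT, a similar level in Pi16-positive fibroblast-like cells (86.1 CPM).

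The FACIT collagens, which decorate fibril surfaces, divided by tissue. Col9a1, Col9a2 and Col9a3, which coat type II fibrils, stood at 2209, 2330.3 and 1925 CPM in WT chondrocyte-like cells and 424, 485 and 155 CPM in those of the mutant, with every other type at or below 51.9 CPM. Col12a1 and Col16a1 led in tendon-like cells at 1583 and 638 CPM in WT against 1268 and 757 CPM in the mutant, with chondrocyte-like cells next in both. Col14a1 led in synovial lining-like cells (1349 and 1177 CPM), then Pi16-positive fibroblast-like (1062 and 1082 CPM) and mesenchymal-like cells (872 and 1055 CPM), the same order in both libraries. Col22a1, a collagen of tissue junctions, led in osteoblast or osteocyte-like cells at 305 and 428 CPM, and its tendon-like level was 194 CPM in WT against 24.3 CPM in the mutant. Col19a1 led in muscle-like cells, which carry satellite cell markers, at 111 and 192 CPM, from 72 and 48 UMIs. Col20a1 had no type above 38.0 CPM and no leading type shared by the libraries.

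Among the named types, the remaining chains were led by osteoblast or osteocyte-like, Schwann-like and muscle-like cells. Unnamed cells were not ranked. Among transmembrane collagens, Col13a1 led in osteoblast or osteocyte-like cells at 342 and 272 CPM, and Col25a1 led there at 171 CPM (95% interval 139.9 to 207) in WT against 766 CPM (694 to 844) in the mutant. Col23a1 led in non-myelinating Schwann-like cells of WT (132 CPM) and in myelinating Schwann-like cells of the mutant (144 CPM, against 83.2 in WT). Mutant non-myelinating Schwann-like cells were 14 in number and were not ranked. Col28a1, a collagen known from peripheral nerve, stood at 416 CPM in WT non-myelinating and at 250.3 and 288 CPM in WT and mutant myelinating Schwann-like cells, with the next type at 24.5 CPM. Col26a1 led in muscle-like cells (112 and 124 CPM) with myelinating Schwann-like cells second (66.1 and 57.9 CPM).

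The leading type was compared between the libraries for the 40 collagens with at least 50 UMIs in each. It was the same for 28 of the 40, whereas among all 14547 genes that met this minimum the share was 47.1%. With the highest doublet scores removed, it was the same for only 18 of 39 collagens, and the share over all genes is not given for that setting. Mutant chondrocyte-like cells then numbered 5, below the minimum of 20, so this type could not lead in the mutant library. The part of this in the lower count was not tested. Among the 28, the shared leaders were chondrocyte-like cells for 7 collagens, tendon-like for 6, osteoblast or osteocyte-like for 5, synovial lining-like for 4, smooth muscle-like and muscle-like for 2 each, and endothelial-like and mesenchymal-like for 1 each. None of the 28 was led by an immune cell type. The matching split over all genes is not given, so nothing particular to collagens is read from these counts. In the mutant, the 7 led by chondrocyte-like cells rest on the cluster that went partly against its label.

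**Figure D3:**
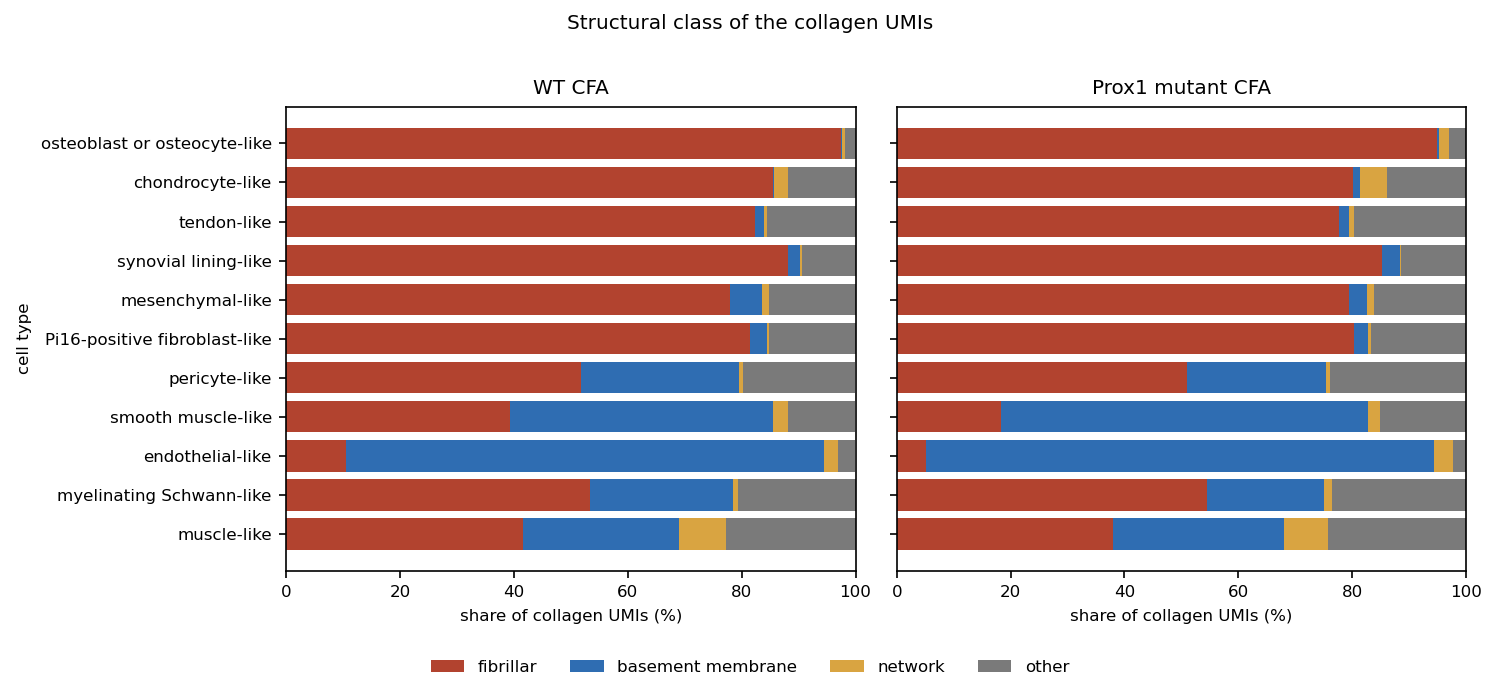
Share of collagen UMIs, in percent, that belonged to each structural class in 11 cell types, with WT on the left and the Prox1 mutant on the right. Fibrillar collagens fill 97.5% and 94.9% of the osteoblast or osteocyte-like bars, and basement membrane collagens 84.1% and 89.4% of the endothelial-like bars.

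The class make-up of the collagen UMIs followed a gradient from skeletal to vascular cells. Fibrillar collagens made up 97.5% (97.4 to 97.6) of the collagen UMIs in osteoblast or osteocyte-like cells of WT and 94.9% (94.7 to 95.1) in the mutant, 88.2% and 85.3% in synovial lining-like cells, and 82.4% and 77.6% in tendon-like cells. Myelinating Schwann-like and pericyte-like cells held 53.3% and 51.7% in WT against 54.5% and 51.1% in the mutant, with basement membrane collagens at 25.2% and 27.8% in WT against 20.6% and 24.4% in the mutant. In endothelial-like cells basement membrane collagens made up 84.1% (83.6 to 84.5) in WT against 89.4% (88.8 to 89.9) in the mutant. Of the 11 types plotted, smooth muscle-like cells had the widest gap between libraries, with basement membrane collagens at 46.1% (44.8 to 47.5) in WT against 64.5% (62.7 to 66.2) in the mutant and fibrillar collagens at 39.4% (38.0 to 40.7) and 18.4% (17.0 to 19.8). Large parts of their main fibrillar UMIs in WT lay in single cells, and Col1a1 and Col3a1 were also lower in neutrophil-like cells of the mutant, as given below. The part of either in this gap was not tested. Type VI and the other chains took 15.5% and 19.7% in tendon-like, 15.2% and 16.2% in mesenchymal-like and 20.7% and 23.5% in myelinating Schwann-like cells.

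Free RNA in droplets puts UMIs of abundant genes into cells that do not express them, so shares of cells with a UMI were read against erythroid-like, neutrophil-like and B lineage-like cells after thinning to 2000 UMIs per cell. Cells with fewer UMIs were left out of the thinned shares. Col4a1 was present in 80.2% (77.5 to 82.7) of endothelial-like cells in WT and 76.6% (72.7 to 80.2) in the mutant, against 2.34%, 1.89% and 0.840% of erythroid-like, neutrophil-like and B lineage-like cells in WT and 0.974%, 2.35% and 1.06% in the mutant. Unthinned and over all cells of the type, the endothelial-like shares were 92.5% and 94.0%, at median depths of 4494 and 5976 UMIs per cell, against medians of 9162 and 9399 in erythroid-like, 4667 and 8704 in neutrophil-like and 4013 and 4827 in B lineage-like cells. Col3a1 was present in 92.0% and 85.8% of mesenchymal-like cells and in 98.2% and 98.3% of synovial lining-like cells, far above its share in those blood cell types, which lay between 4.26% and 6.79%. Type I collagen in endothelial-like cells was close to this background. Col1a1 was present in 9.96% (8.14 to 12.02) of endothelial-like cells in WT and 11.2% (8.63 to 14.3) in the mutant, against 14.3% (8.55 to 21.9) and 10.6% (5.22 to 18.7) of B lineage-like, 8.30% and 10.4% of neutrophil-like and 7.36% and 6.01% of erythroid-like cells. Smooth muscle-like (10.5% and 8.99%), macrophage-like (6.17% and 8.18%) and inflammatory macrophage-like cells (7.28% and 3.06%) also lay within the range of these blood cell types or below it, whereas myelinating Schwann-like cells lay above it at 36.3% and 31.6%. Col2a1 was present in 6.79% of neutrophil-like and 2.90% of endothelial-like cells in WT, and in 0.671% and 0.193% in the mutant. Col6a1 was present in 0.830% and 0.193% of endothelial-like cells, at the level of erythroid-like cells (0.669% and 0.649%).

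Chains that form 1 trimer were compared in the same cells. Type I collagen contains more of the chain made by Col1a1 than of that made by Col1a2, and the share of Col1a1 in the UMIs of both genes was 57.9% (57.5 to 58.3) in osteoblast or osteocyte-like cells of WT and 55.0% (54.5 to 55.5) in the mutant. It was 53.9% and 51.5% in tendon-like, 47.6% and 47.7% in synovial lining-like and 47.4% and 47.8% in mesenchymal-like cells. Myelinating Schwann-like cells had 30.2% (27.6 to 32.9) in WT against 28.9% (25.4 to 32.5) in the mutant, and WT non-myelinating Schwann-like cells 22.1% (17.6 to 27.2), so that Col1a2 outnumbered Col1a1 there in a ratio found in no skeletal type. Capture of the 3′ ends may differ between genes, so such a share is compared between cell types and is not a ratio of molecules. The Col4a1 share in the UMIs of Col4a1 and Col4a2 was 59.2% (58.5 to 59.996) and 58.1% (57.2 to 59.1) in endothelial-like, 65.9% and 62.5% in pericyte-like and 61.5% and 63.2% in synovial lining-like cells. Tendon-like cells had 56.1% (53.0 to 59.1) in WT against 47.7% (42.9 to 52.5) in the mutant, and WT chondrocyte-like cells 28.1% (17.6 to 40.8) from 18 and 46 UMIs. The mutant tendon-like share was 58.4% when merged without integration and 57.2% with doublets removed, so no order between the libraries is read from it. For Col6a1 in the UMIs of Col6a1 and Col6a2, the 21 values ran from 43.7% to 74.8% with a median of 58.3%. Col4a5 made up 61.0% and 59.2% of the UMIs of Col4a5 and Col4a6 in smooth muscle-like cells.

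**Figure D4:**
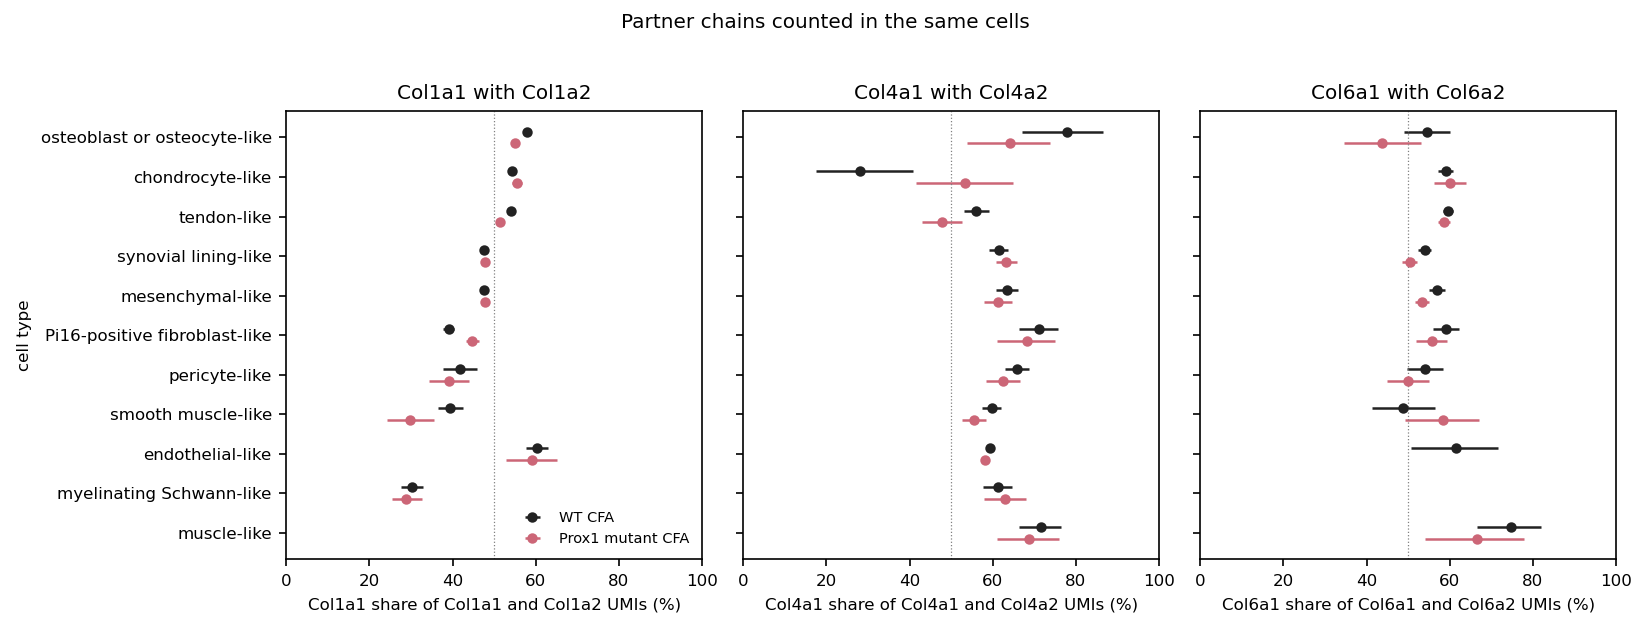
Share, in percent, of the first chain in the UMIs of 2 partner chains in 11 cell types, with WT in black, the Prox1 mutant in red and lines as exact binomial 95% intervals. Col1a1 lies at 57.9% in WT osteoblast or osteocyte-like and 30.2% in WT myelinating Schwann-like cells, whereas Col4a1 is above 50% in most types.

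The mutant and WT libraries were then compared within cell types that had at least 50 cells in each and at least 10 collagens with 50 UMIs over both. This gave 7 types and 146 pairs of a collagen and a type, of which 12 were more than 2-fold higher and 24 more than 2-fold lower in the mutant library. Of these 36, 18 had at least 50% of a library's UMIs in 1 cell, 26 stayed past 2-fold without the cell with the most UMIs in each library, and 1 turned direction. With at least 200 UMIs required the counts were 3 higher and 11 lower. A ratio is given as log2 of mutant CPM over WT CPM with its interval in parentheses, and every gene with the same minimum gives the background share. In 5 of the 7 types Hbb-bs, a haemoglobin gene of erythroid cells, was higher in the mutant library, for example 884 against 6008 CPM in endothelial-like, 199.9 against 2449.6 CPM in tendon-like and 149 against 1977 CPM in inflammatory macrophage-like cells, and its part in the ratios was not tested.

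Tendon-like cells held lower levels of the type II, IX and XI chains, which build cartilage fibrils, in the mutant library. The label covers 2 clusters, with 6 and 3 of 7 tendon markers raised at mean log2 folds of 3.95 and 1.35. Before reclustering, a chondrocyte-like cluster of 196 WT and 156 mutant cells had 5 of 10 chondrocyte and 5 of 7 tendon markers raised. It shared the leading genes Adamts18, Tnn, Ecrg4 and Fmod with the second tendon-like cluster, and the part of cartilage cells in these values was not tested. Of 29 collagens, 1 was past 2-fold higher and 7 lower, against 2.56% and 2.60% of all 8207 genes in this type, and the collagen median was -0.31 against 0.07 over all genes. Col9a1 had 122 UMIs (51.9 CPM) in WT against 0 in the mutant. With this 0 set to 3 UMIs the log2 ratio was -4.64, and it ran from -4.72 to -3.83 over the alternatives that gave one. With the stricter cell filter and when merged without integration, Col9a1, Col9a2 and Col9a3 gave no ratio in this type. Col2a1 stood at 187 CPM in WT against 44.5 CPM in the mutant (-2.07 (-2.47 to -1.69)), Col9a2 at 33.6 and 7.65 CPM (-2.14 (-3.19 to -1.22)) and Col9a3 at 28.1 and 6.26 CPM (-2.17 (-3.36 to -1.15)). Col22a1 stood at 194 and 24.3 CPM (-2.99 (-3.53 to -2.49)), and the other 2 past 2-fold were Col11a1 (-1.26) and Col11a2 (-1.94). These UMIs sat in few cells, with between 22.8% and 43.4% of the WT UMIs of the type II and IX chains in 1 cell each. Col6a5 was the 1 collagen past 2-fold higher (3.12 (2.13 to 4.26)), with 94.3% of its mutant UMIs in 1 cell and a log2 ratio of -0.02 without it. Col27a1, a fibrillar chain of cartilage, lay the other way at 235 CPM in WT against 341 CPM in the mutant (0.54 (0.36 to 0.72)). Col2a1 was also lower in neutrophil-like cells of the mutant, at 12.3 CPM in WT against 1.43 CPM, and the part of this in the tendon-like ratios was not tested. The abundant chains stayed within 2-fold, with Col1a1 at 14402 and 9659 CPM (-0.58 (-0.60 to -0.55)), Col1a2 at -0.43 (-0.46 to -0.40), Col3a1 at -0.02 (-0.05 to 0.02) and Col6a1 at 0.21 (0.14 to 0.29). The type IV chains stood at 250.1 and 144 CPM for Col4a1 (-0.80 (-1.03 to -0.57)) and 196 and 158 CPM for Col4a2 (-0.31 (-0.55 to -0.08)). The log2 ratio of Col4a1 ran from -1.07 to -0.29 over the alternatives. When the libraries were merged without integration the tendon-like log2 ratio of Col2a1 turned to 0.13, whereas over all alternatives Col22a1 ran from -6.15 to -1.65 and Col1a1 from -0.66 to -0.37.

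In endothelial-like cells Col4a1 and Col4a2 differed little, and 8 other collagens were past 2-fold lower in the mutant library. Col4a1 stood at 1383 CPM in WT against 1304 CPM in the mutant (-0.09 (-0.13 to -0.04)) and Col4a2 at 951 and 939.6 CPM (-0.02 (-0.07 to 0.04)). Of 18 collagens, 1 was past 2-fold higher and these 8 lower, against 1.99% and 2.02% of all 10713 genes. The lower ones included Col2a1 (84 UMIs in WT and 5 in the mutant, -3.43 (-5.09 to -2.15)), Col6a1 (-2.85 (-4.53 to -1.54)), Col5a3 (-2.71 (-4.40 to -1.40)), Col23a1 (-1.94 (-2.59 to -1.35)), Col1a1 (-1.81 (-2.07 to -1.55)), Col1a2 (-1.73 (-2.05 to -1.43)) and Col3a1 (-1.44 (-1.74 to -1.16)). A single WT cell gave 59.9% of the Col1a1 UMIs and 75.2% of those of Col23a1, and without the top cell of each library the log2 ratios of Col1a1, Col1a2, Col3a1 and Col23a1 were -0.53, -0.97, -0.60 and -0.38. The thinned shares of endothelial-like cells with a Col1a1 UMI, given above, lay close to those of blood cell types. They were not lower in the mutant and had overlapping intervals, so no order of Col1a1 is read from the shares or the CPM. In neutrophil-like cells Col1a1 was 102 CPM in WT against 33.99 CPM in the mutant, Col1a2 108 against 20.6 and Col3a1 90.4 against 20.3. Col2a1 was 12.3 against 1.43 CPM there and Col6a1 10.2 against 1.14 CPM. These neutrophil-like levels were lower in the mutant too, and their part in the endothelial-like ratios was not tested. Of the 18 collagens, 14 had a log2 ratio below 0 and 4 above it. Col5a2, outside the naming rule and chosen after its values were seen, held 46.0 CPM in WT against 56.1 CPM in the mutant (0.29 (0.05 to 0.53)). Col28a1, outside the naming rule and chosen after its values were seen, stood at 24.5 CPM in WT against 7.37 CPM in the mutant, and its log2 ratio of -1.74 was -1.79 without the top cells. In WT most of its endothelial-like UMIs lay in the capillary cluster, which stood at 55.0 CPM in WT against 7.98 CPM in the mutant. In the mutant most of them lay outside that cluster. With the highest doublet scores removed Col3a1 turned to 0.20, and with every cell weighted equally Col1a1 and Col3a1 stood at -0.31 and -0.25, whereas Col4a1 ran from -0.17 to -0.05 over all alternatives. Col25a1 was higher in the mutant (1.53 against 16.0 CPM, 3.39 (2.46 to 4.45)), with 66.2% of the mutant UMIs in 1 cell and 2.10 without the top cells.

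Smooth muscle-like cells had lower CPM of several fibrillar collagens in the mutant library. As given above, their thinned shares with a Col1a1 UMI lay close together, within the range of blood cell types in both libraries. Of 19 collagens, 0 were past 2-fold higher and 5 lower, against 1.25% and 2.89% of all 7024 genes, and all 5 were fibrillar. In neutrophil-like cells, blood cells not known for making collagens, Col1a1 was 102 CPM in WT against 33.99 CPM in the mutant and Col3a1 90.4 against 20.3 CPM, and in erythroid-like cells Col3a1 was 139 against 26.6 CPM. These levels were lower in the mutant too, and their part in the smooth muscle-like ratios was not tested. Summed collagens of erythroid-like cells were 449.7 CPM in WT against 168.2 CPM in the mutant. Without the cell with the most collagen UMIs they were nearly level, at 163.0 and 149.8 CPM. Those of neutrophil-like cells then stood at 316.6 and 117.7 CPM. Col1a1 stood at 244 CPM in WT against 60.5 in the mutant (-2.01 (-2.37 to -1.67)), Col3a1 at 329.5 and 91.1 (-1.85 (-2.15 to -1.57)), Col5a2 at 136 and 41.8 (-1.70 (-2.14 to -1.27)), Col1a2 at 374 and 143 (-1.38 (-1.62 to -1.15)) and Col5a3 at 26.5 and 11.2 CPM (-1.24 (-2.19 to -0.37)). A single WT cell per gene held between 35.7% and 43.5% of the UMIs of Col1a1, Col1a2, Col3a1 and Col5a2, and without the top cells their log2 ratios were -1.55, -0.87, -1.42 and -1.24. Over the alternatives the log2 ratio ran from -2.01 to -1.07 for Col1a1 and from -1.85 to -0.65 for Col3a1, and the mutant value stayed the lower. The basement membrane chains Col4a1 (599 and 486 CPM, -0.30 (-0.44 to -0.16)) and Col4a2 (-0.05 (-0.22 to 0.11)) and the filament chain Col6a1 (0.11 (-0.36 to 0.57)) stayed within 2-fold.

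In mesenchymal-like cells Col3a1 was higher and the type IV chains were lower in the mutant library, by less than 2-fold for the most abundant genes. Col3a1 stood at 6548 CPM in WT against 9301 CPM in the mutant (0.51 (0.47 to 0.54)), Col1a1 at 3753 and 4311 (0.20 (0.15 to 0.25)), Col1a2 at 4157 and 4706 (0.18 (0.13 to 0.22)) and Col6a1 at 788 and 993 CPM (0.33 (0.23 to 0.44)). The type IV chains were lower, with Col4a1 at 488 and 269.5 CPM (-0.86 (-1.02 to -0.70)), Col4a2 at -0.72 (-0.93 to -0.51), and Col4a5 (-1.04 (-1.63 to -0.46)) and Col4a4 (-1.39 (-2.33 to -0.53)) past 2-fold lower. Of 24 collagens, 0 were past 2-fold higher and 2 lower, against 2.41% and 2.03% of all 8261 genes. Col3a1 differed among the 3 mesenchymal-like clusters, at 9394 CPM in WT against 12950.4 CPM in the mutant in the cluster led by Angptl1, Myoc and Cilp, and at 3413 and 4113 CPM in the cluster led by Tenm2 and Smoc2. In the latter cluster Col4a1 stood at 1033 CPM in WT against 286 CPM in the mutant. The cluster led by Tenm2 and Smoc2 held 68 WT and 77 mutant cells, that led by Angptl1, Myoc and Cilp 64 and 51, and that led by Inmt and Gdf10 53 and 18. The type thus mixes these 3 clusters in unlike parts. Summed collagens stood at 16439 CPM in WT against 15503 CPM in the mutant in the Tenm2 cluster, and at 13950 and 12148 CPM in the Inmt cluster. Only the Angptl1 cluster was higher in the mutant, at 27023 and 33825 CPM. In that cluster 7 of 7 tendon markers were raised beside 12 of 12 mesenchymal markers, and the part of tendon cells in its values was not tested. With every cell weighted equally Col1a1 and Col1a2 turned to -0.07 and -0.11, and Col3a1 stood at 0.14. In 3 of the 6 alternative clusterings the type held 30 to 33 mutant cells, too few for a ratio, and its collagens summed to 13136 to 13504 CPM in WT against 10899.7 to 12172 CPM in the mutant, an order opposite to that of the 21263 and 26004 CPM given above.

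In synovial lining-like cells the major collagens differed by less than 2-fold, with Col3a1 at 15214 and 13081 CPM (-0.22 (-0.24 to -0.20)), Col1a1 at 7238 and 5047 (-0.52 (-0.56 to -0.48)), Col1a2 at -0.53 (-0.56 to -0.49), Col6a1 at -0.03 (-0.13 to 0.06), Col4a1 at 0.29 (0.16 to 0.41) and Col4a2 at 0.18 (0.01 to 0.34). Of 24 collagens, 0 were past 2-fold higher and 2 lower (Col4a5 with 48 and 3 UMIs, -3.40 (-5.72 to -1.76), and Col8a2 with 52 and 13 UMIs, -1.40 (-2.40 to -0.50)), against 2.17% and 2.25% of all 8577 genes. Myelinating Schwann-like cells had 0 of 19 collagens past 2-fold in either direction, against 1.65% higher and 2.14% lower of all 6077 genes. Their Col1a1, Col1a2, Col3a1, Col4a1 and Col4a2 had log2 ratios of -0.06 (-0.32 to 0.20), 0.03 (-0.14 to 0.20), 0.17 (-0.23 to 0.57), -0.17 (-0.40 to 0.07) and -0.28 (-0.58 to 0.03), all with intervals that include 0. In synovial lining-like cells Col4a2 turned to between -0.06 and -0.01 under 3 alternatives, and Col4a5 stood at -0.18 with collagens kept among the clustering features. In myelinating Schwann-like cells Col3a1 and Col1a1 stood at 2.21 and 1.09 when the libraries were merged without integration.

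Inflammatory macrophage-like cells, named from Nos2, Mmp12, Spp1 and similar markers, had higher CPM of most collagens compared in the mutant library, with many of the UMIs in single cells. Of 13 collagens, 10 were past 2-fold higher and 0 lower, against 4.73% and 1.37% of all 9774 genes, and the collagen median was 1.94 against 0.20 over all genes. Col1a1 stood at 19.9 CPM in WT against 48.4 CPM in the mutant (1.28 (1.01 to 1.56)), Col1a2 at 18.3 and 51.0 (1.48 (1.203 to 1.77)) and Col3a1 at 17.8 and 68.3 CPM (1.94 (1.67 to 2.22)). The 6 farthest from 1 were Col12a1 (3.22 (2.07 to 4.61)), Col6a3 (3.02 (2.28 to 3.86)), Col6a1 (2.53 (1.90 to 3.20)), Col6a2 (2.49 (1.72 to 3.35)), Col14a1 (2.11 (1.15 to 3.18)) and Col5a2 (1.995 (1.37 to 2.65)). A single mutant cell per gene gave between 36.8% and 74.4% of the mutant UMIs of these 9 genes. Without the top cell of each library, 8 of the 10 stayed past 2-fold. Summed collagens stood at 124 CPM in WT against 296 CPM in the mutant, and at 108 and 199 CPM without the cell with the most collagen UMIs. The Col3a1 level of inflammatory macrophage-like cells in WT lay below those of erythroid-like, neutrophil-like and B lineage-like cells (139, 90.4 and 34.7 CPM) and in the mutant above them (26.6, 20.3 and 19.4 CPM). Much of the WT erythroid-like collagen lay in 1 cell, since its summed level fell from 449.7 to 163.0 CPM without that cell. In neutrophil-like cells of the mutant Col1a1, Col1a2 and Col3a1 stood at 33.99, 20.6 and 20.3 CPM, and in those of WT at 102, 108 and 90.4 CPM. The share of inflammatory macrophage-like cells with a Col1a1 UMI after thinning was 7.28% (4.44 to 11.1) in WT against 3.06% (1.13 to 6.54) in the mutant, so the order of the shares went against that of the CPM and no order is read from either. The log2 ratio of Col1a1 turned to -0.59 with a looser cell filter and -0.38 without integration, whereas Col6a3 ran from 1.48 to 3.28 over all alternatives. The ranges were wide for others, from 0.60 to 3.40 for Col12a1, 0.41 to 2.41 for Col14a1 and 0.22 to 1.58 for Col1a2. With doublets removed Col1a1 (0.46) and Col1a2 (0.85) lay within 2-fold, whereas Col3a1 (1.22), Col5a2 (1.79), Col6a1 (2.47) and Col6a2 (2.63) stayed past it. Col4a1 stood at 8.54 and 5.60 CPM (-0.61 (-1.23 to -0.01)) and Col4a2 at a log2 ratio of -0.35 (-1.11 to 0.38). In macrophage-like cells, Col1a1, Col1a2 and Col3a1 stood at 24.5, 16.9 and 16.6 CPM in WT against 24.5, 22.2 and 20.7 CPM in the mutant, with log2 ratios whose intervals include 0.

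**Figure D5:**
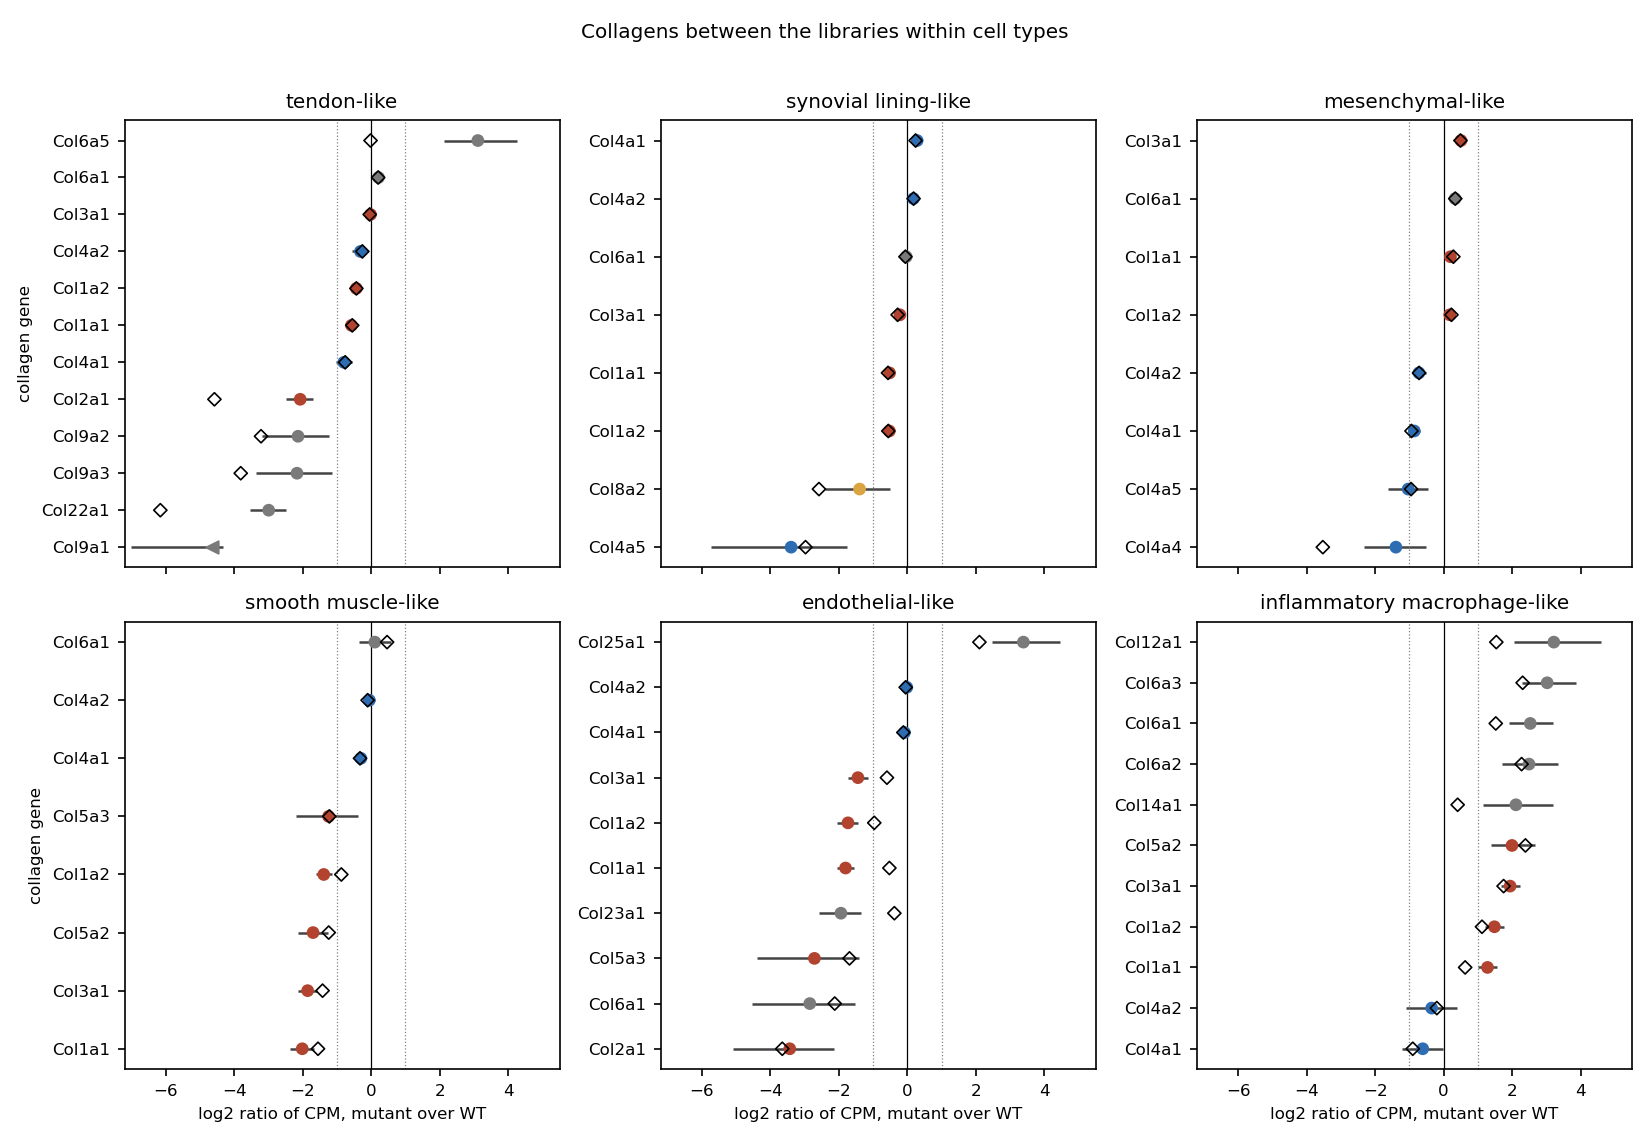
Log2 ratio of CPM, mutant over WT, for the named collagens in 6 cell types, with filled points coloured by class (red fibrillar, blue basement membrane, yellow network, grey other), lines as exact conditional 95% intervals for counting error and open diamonds as the ratio without the cell with the most UMIs in each library. The left-pointing triangle is Col9a1 in tendon-like cells, at 0 UMIs in the mutant and set at 3, and dotted lines mark 2-fold. In smooth muscle-like cells the 5 points past 2-fold lower are all fibrillar, and Col6a5 in tendon-like cells moves from 3.12 to -0.02 without the top cells.

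Collagen chains are hydroxylated, folded and exported by a shared set of enzymes and are cleaved and cross-linked outside the cell, and 34 such processing genes were followed beside the chains. Serpinh1, the collagen chaperone HSP47, was highest in osteoblast or osteocyte-like cells of both libraries, at 1989 CPM in WT against 1549 CPM in the mutant. Lox, which starts cross-linking, was highest there too at 438 and 292 CPM. Plod2, the lysyl hydroxylase of cross-link sites, was highest in WT chondrocyte-like cells at 1206 CPM and in mutant osteoblast or osteocyte-like cells at 498 CPM. P4ha1, a prolyl hydroxylase subunit, was nearly level between chondrocyte-like (327 CPM) and tendon-like cells (316 CPM) of WT and led in tendon-like cells of the mutant (298 CPM). The leading type was the same in both libraries for 18 of the 33 that had 50 UMIs in each, against 47.1% of all genes, and 5 of these 18 were led by osteoblast or osteocyte-like cells. Pcolce2 and Bmp1, which act on the type I propeptide, were led by Pi16-positive fibroblast-like cells, at 1019 and 321 CPM in WT against 718 and 338 CPM in the mutant. Loxl1 and P4ha3 were led by synovial lining-like cells (526 and 148 CPM in WT) and Loxl2 by tendon-like cells (263 CPM in WT). Of 9 receptor genes, 8 met the minimum and 5 kept their leading type, among them Itga1 in endothelial-like cells (1114 and 1380.5 CPM), Ddr2 in Pi16-positive fibroblast-like cells (738 and 859 CPM) and the inhibitory receptor Lair1 in dendritic-like cells (409.6 and 559.5 CPM).

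The processing genes were compared between the libraries in the same way, with the higher and lower shares of all genes beside the counts. At most 2 passed 2-fold in a direction in any type, too few for a share to be read from them. In tendon-like cells 0 of 29 were past 2-fold higher and 2 lower (Adamts3, -1.97 (-2.39 to -1.57), and Colgalt2, -1.19 (-1.82 to -0.61)), against 2.56% and 2.60% of all genes. In synovial lining-like cells it was 0 of 31 in either direction, against 2.17% and 2.25%. In mesenchymal-like cells 1 of 30 was higher (Tll1, 2.49 (1.71 to 3.35), with 66.3% of the mutant UMIs in 1 cell) and 0 lower, against 2.41% and 2.03%. In endothelial-like cells 1 of 24 was higher (Lox, 1.29 (0.57 to 2.03)) and 2 lower (P3h1, -1.32 (-2.16 to -0.56), and Fkbp14, -1.02 (-1.998 to -0.12)), against 1.99% and 2.02%. Smooth muscle-like cells had 0 of 19 higher and 1 lower (Pcolce, -1.09 (-1.61 to -0.58)), against 1.25% and 2.89%. Myelinating Schwann-like cells had 0 of 15 higher and 2 lower (Tmem38b, -1.39 (-2.61 to -0.34), and Lox, -1.03 (-2.14 to -0.05)), against 1.65% and 2.14%. Inflammatory macrophage-like cells had 2 of 15 higher (P4ha2, 1.22 (0.39 to 2.09), and Serpinh1, 1.34 (0.77 to 1.92)) and 0 lower, against 4.73% and 1.37%. Serpinh1 had log2 ratios of -0.12 (-0.20 to -0.04) in tendon-like, -0.08 (-0.16 to -0.00) in synovial lining-like, 0.33 (0.22 to 0.44) in mesenchymal-like and -0.14 (-0.24 to -0.03) in endothelial-like cells. Lox had -0.87 (-1.16 to -0.59), -0.49 (-0.65 to -0.33) and -0.40 (-0.74 to -0.07) in the first 3 of these, Plod2 -0.59 (-0.72 to -0.46), -0.01 (-0.17 to 0.14) and -0.60 (-0.76 to -0.43), and P4ha1 -0.09 (-0.26 to 0.09), -0.06 (-0.26 to 0.13) and 0.05 (-0.18 to 0.28). The receptors had 0 members past 2-fold in these 7 types, with only 3 to 6 genes compared per type, against the same shares of all genes.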

How the data were processed

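Cells of the TMJ were profiled in 1 WT and 1 Prox1 mutant library after CFA. The values are raw UMI counts per gene and barcode, which the authors made with Cell Ranger 7.0.1 against GRCm38 (mm10) and deposited without normalization or a further filter on cells. The kit is given as 3′ v2 in the labels and as 3′ v3.1 in the study's methods, and whether introns were counted is not given in the sources used here. The libraries totalled 53517206 (WT) and 62446987 (mutant) UMIs over all barcodes, and 10 barcodes occurred in both, 4 of them among kept cells.

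As in the study's methods, kept cells were normalized by SCTransform, the libraries were integrated through anchors, and clusters were drawn from 200 principal components at resolution 1.5 (Seurat 5.3.0, sctransform 0.4.2, R 4.3.3), here on 2961 features after 39 collagens had been left out of 3000. A marker counted as raised at 2-fold over the other cells (CPM plus 5) with a UMI in at least 10% of the cluster, and a cluster needed at least 3 raised markers of its type and a mean log2 fold of at least 1.0 over all of them. Skeletal and fibroblast clusters were reclustered on 30 principal components at resolution 0.5, and this step and the rules that keep mixed, shallow or 1-library clusters unnamed were chosen after clusters had been seen. The members and all gene lists were chosen with earlier results of these data known. Scrublet (scanpy 1.11.5) called 0 doublets by its automatic threshold, so a rate of 0.008 per 1000 cells set how many of the highest scores were called (239 WT and 462 mutant barcodes), and these stayed in unless stated. Intervals at 95% (Poisson, Clopper-Pearson and conditional binomial, scipy 1.17.1) cover counting error only, PCR and mouse to mouse variation not included, and a gene at 0 UMIs was set to 3. Leading types were taken among types with at least 20 cells, and ratios among types with at least 50 cells in each library. The ratio code was tested on simulated data.

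The text names every collagen with at least 200 UMIs, but for several it gives levels in fewer than the 3 highest types. It also names the collagens past 2-fold within a type (the 6 farthest from 1 where there were more). Col1a1, Col1a2, Col3a1, Col4a1, Col4a2 and Col6a1 were to be named in every type with 50 UMIs. Of the processing genes, those past 2-fold (up to 4 per type) are named with Serpinh1, P4ha1, Plod2 and Lox. Alternatives changed the cell filter, the clustering features, the integration, the resolution, the doublets, the denominator, the weighting of cells, single cells, the scaling, the minimum of UMIs, the fold and the thinning depth. Imaging and behaviour were not analysed here.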

Additional observations from a re-analysis of the deposited data

How the results depend on the processing

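No paired analysis was possible because each condition is 1 library and both carry the replicate number 1. No test between conditions was run and no library could be left out. The 6 alternative clusterings were named by the same marker rules, so a change of clustering changes which cells bear a name. Types with few cells and genes with few UMIs have the widest intervals. The median ratio of all genes lay more than 0.1 from 0 on the log2 scale in inflammatory macrophage-like cells (0.20) and monocyte-like cells (0.10), and TMM also shifted erythroid-like cells by -0.17. Where an alternative changed a value, the cause was not tested.

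The log2 ratio of summed collagens kept its sign under every alternative that gave one for the 4 types below. In tendon-like cells it was -0.27, and it was -0.30 with the looser filter, -0.17 with the stricter filter, -0.33 with collagens kept for clustering, -0.078 merged without integration, -0.10 with doublets removed, -0.21 with cells weighted equally, -0.34 centred on the median gene and -0.36 with TMM factors. In synovial lining-like cells it was -0.28, and it was -0.32 with the looser filter, -0.098 with collagens kept for clustering, -0.32 merged without integration, -0.32 at resolution 0.5, -0.34 with doublets removed, -0.32 with cells weighted equally, -0.32 without the top cells and -0.30 with TMM factors. In endothelial-like cells it was -0.17, and it was -0.14 with the stricter filter, -0.21 with collagens kept for clustering, -0.22 at resolution 0.5, -0.13 with doublets removed, -0.096 with cells weighted equally, -0.21 centred on the median gene and -0.23 with TMM factors. In mesenchymal-like cells it was 0.29, and it was 0.41 with the looser filter, 0.35 with the stricter filter, 0.0080 with cells weighted equally, 0.31 without the top cells, 0.26 centred on the median gene and 0.26 with TMM factors. For mesenchymal-like cells 3 clusterings left fewer than 50 mutant cells and gave no ratio, and in these the summed levels stood in the opposite order, at 13136 to 13504 CPM in WT against 10899.7 to 12172 CPM in the mutant. Within the main clustering, the summed level was higher in the mutant only in the mesenchymal-like cluster led by Angptl1, Myoc and Cilp, and lower in the others.

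The 12 higher and 24 lower pairs of a collagen and a type became 3 and 11 with a minimum of 200 UMIs and 28 and 37 at 1.5-fold, and a minimum of 20 UMIs gave 43 lower pairs. Other alternatives moved either count by less than 1.5 times. The 28 shared leading types became 18 of 39 with doublets removed. Summed collagens of tendon-like cells, 46788 CPM in WT, were 46508 with the looser filter, 36308 with the stricter filter, 47793 with collagens kept for clustering, 38972 merged without integration, 36410.4 with doublets removed, 48151 without haemoglobin and mitochondrial genes in the total, 40477 with cells weighted equally and 45852 without the top cells. In the mutant, 38854 CPM became 37783 with the looser filter, 32328 with the stricter filter, 38131 with collagens kept for clustering, 36918 merged without integration, 33950.4 with doublets removed, 40099 without haemoglobin and mitochondrial genes in the total, 34883 with cells weighted equally and 38077 without the top cells. The fibrillar share of synovial lining-like cells, 88.2% in WT, was 87.9% with the stricter filter and 86.7% with collagens kept for clustering, and in the mutant 85.3% became 83.8% with collagens kept for clustering. The Col4a1 share of its pair in mesenchymal-like cells, 63.4% in WT, was 66.3% with collagens kept for clustering and 67.0% with doublets removed, and in the mutant 61.2% became 50.5% with collagens kept for clustering, 50.9% merged without integration and 50.3% with doublets removed.

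At 1000 UMIs per cell, with shallower cells left out, the share with a UMI was, in WT and mutant, 62.7% and 57.3% for Col4a1 in endothelial-like cells, 84.0% and 73.9% for Col3a1 in mesenchymal-like cells and 2.28% and 2.78% in erythroid-like cells. Unthinned, these were 92.5% and 94.0%, 96.2% and 84.2%, and 15.2% and 20.5% over all cells, so the shares do not rest on the same cells. Of 636 values of 62 named ratios under alternatives, 459 stayed within the counting interval, 166 moved outside it with the same sign or from an interval that included 0, and 11 turned sign. The latter were Col3a1 in endothelial-like cells (0.20 with doublets removed), Col4a1 in inflammatory macrophage-like cells (0.12 with cells weighted equally), Col1a1 in inflammatory macrophage-like cells (-0.59 with the looser filter, -0.38 merged without integration), Col1a2 in mesenchymal-like cells (-0.11 with cells weighted equally), Col1a1 in mesenchymal-like cells (-0.069 with cells weighted equally), Col4a2 in synovial lining-like cells (-0.012 with the stricter filter, -0.047 with collagens kept for clustering, -0.065 with doublets removed), Col6a5 in tendon-like cells (-0.018 without the top cells) and Col2a1 in tendon-like cells (0.13 merged without integration). Of 185 other values, 80 moved outside their interval or by over 1.5 times in the case of counts, and 7 by over 1.5 times, namely the summed mesenchymal-like level given above and the number of pairs compared at 200 UMIs (91 of 146).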

Other observations

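An unnamed cluster of 85 WT and 29 mutant cells, led by Dok6, Plppr1, Gpc5, Rspo4 and Unc5d, held high levels of 2 transmembrane collagens in both libraries. Col25a1, a neuronal and muscle transmembrane collagen, stood at 1114 CPM in WT against 763 CPM in the mutant, and the transmembrane collagen Col23a1 at 960.0 and 833 CPM. These values were above those of every named type in WT, where Col25a1 reached 171 CPM in osteoblast or osteocyte-like cells and Col23a1 132 CPM in non-myelinating Schwann-like cells. In the mutant Col25a1 was about as high in osteoblast or osteocyte-like cells, at 766 CPM. The cluster also held Col1a1 at 1059 and 1056 CPM and Col9a2 at 329 and 156 CPM. In it 5 of 12 mesenchymal markers were raised, but no type with at least 3 raised markers reached the minimum mean for a name, so it was given none.

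Unnamed clusters with collagen that came almost wholly from the mutant library included the following pair. In a cluster of 140 mutant and 3 WT cells led by Car1, Nrg4 and Rspo2, Col1a1 stood at 3392 CPM and Col12a1 at 212 CPM. In a cluster of 108 mutant and 2 WT cells led by Cxcl5, Igha and Cilp2, in which 9 mesenchymal markers were raised, Col3a1 stood at 3669.8 CPM and Col14a1 at 456 CPM. Their median depths were 2473 and 3109.5 UMIs per mutant cell, below the median of 4848 for the mutant library. With 1 library per condition, a cell state of the mutant and a property of that library cannot be told apart.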
